A study of Homo sapiens with 10 samples.

Results

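The transcripts described here are those of the human mitochondrial genome, chosen as every gene whose symbol starts with MT- in a table of TPM (transcripts per 1e6, an abundance that allows for gene length and sums to the same total in each library). The rule found 37 of 58222 genes, namely 13 mRNAs, 2 rRNAs and 22 tRNAs, and the mRNAs and rRNAs passed the filter of 1 TPM in 2 libraries while the tRNAs did not. They were followed in OVCAR-3, an established cell line from a human ovarian adenocarcinoma, over 5 groups of 2 libraries each. The sample titles number the libraries of a group and do not say whether they come from separate cultures. Day1 cells had been held in a silica gel for 24 hours and Day3 cells for 3 days. Extracted cells had lived through 3 days in the gel and then grown for 2 weeks in ordinary culture. Treated cells were never in a gel, had lived through 24 hours of cisplatin, a platinum drug that crosslinks DNA, at 0.5 uM, and had likewise grown for 2 weeks afterwards. Control cells stayed in ordinary culture throughout. All 5 groups are the same line in the same medium, and both recovered groups descend from the cells that survived.

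Human mitochondrial DNA is a small circle that encodes core subunits of respiratory complexes I, III, IV and V together with the rRNAs and tRNAs that translate them. Both strands are copied by a dedicated RNA polymerase into long RNAs that span many genes, and the tRNAs lying between the mRNAs are cut out to release them. Most mRNAs come from one strand, MT-ND6 comes from the other, and most of the released mRNAs receive a poly(A) tail that completes the stop codon of several of them. Nuclear genes supply the rest of the organelle, including the polymerase, the processing enzymes and the remaining respiratory subunits.

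The layout of these genes bears on how well each TPM can be assigned. Sequences at some shared or abutting ends are therefore shown first, in GRCh38 and as given by the GENCODE release 29 transcripts. MT-ATP6 and MT-CO3 also share the base at chrM:9207, which is not shown. MT-ATP8 and MT-ATP6 lie on 1 mRNA and share 46 bases at chrM:8527-8572 on the plus strand, where capitals mark the first codon of MT-ATP6 and the last codon of MT-ATP8.
MT-ATP8 and MT-ATP6 overlap: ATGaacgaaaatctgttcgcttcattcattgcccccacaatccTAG
MT-ND4L and MT-ND4 also lie on 1 mRNA, and the last bases of MT-ND4L at chrM:10743-10766 hold in capitals the 7 bases shared with the start of MT-ND4.
MT-ND4L end: aacctaaacctactccaATGCTAA
MT-ND5, on the plus strand, and MT-ND6, on the minus strand, end against each other with 0 bases between them, at chrM:14134-14148 and chrM:14149-14163. Capitals mark the last codon of each.
MT-ND5 3 prime end: ctcctaatcacaTAA
MT-ND6 3 prime end: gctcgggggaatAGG
Of the 13 mRNA genes, 7 end in a whole codon and 6 end 1 or 2 bases past their last full codon, where the tail supplies the missing bases. MT-ND1, MT-CO3 and MT-CYB are examples, with the extra bases in capitals.
MT-ND1 3 prime end: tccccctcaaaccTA
MT-CO3 3 prime end: attgatgagggtctT
MT-CYB 3 prime end: tactcaaatgggccT
Library selection and strand setting are not stated in the sources at hand. Reads within shared bases can be split between overlapping genes only by estimation, and RNA from the opposite strand over MT-ND6 would be counted with it unless strand was used.

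Sequencing depth is unknown, since TPM carry no counts, and every library sums to between 999986 and 999995 TPM. Replicates correlated across genes, which are not independent replicates, at 0.983 to 0.991. Of the 12 ovarian carcinoma markers checked, 11 had at least 1 TPM in all 10 libraries, with a summed level of 4557 to 6120 TPM, and ESR1 stayed below 1 TPM. Fibroblast markers summed to 7.19 to 15.3 TPM, leukocyte markers to 3.04 to 10.1 and endothelial markers to 1.33 to 2.79, with 4 of 6, 3 of 6 and 4 of 5 below 1 TPM in all libraries, among them COL3A1, DCN, PTPRC and CD3E. COL1A1 and CD68 had at least 1 TPM in all 10 libraries. Of the fibroblast, leukocyte and endothelial markers, 2, 3 and 0 passed the filter and were tested. Of those tested, 0 were called against Control with limma, where 1 or 0 fibroblast and 0 to 2 leukocyte markers had an unadjusted p under 0.05 in each group. CD14 was called higher in Treated than in Extracted cells, at 1.26 ± 0.0773 TPM in Treated and 0.254 ± 0.00413 TPM in Extracted cells (SD, n = 2 each). Of the 11 ovarian carcinoma markers tested, 2 were called higher and 1 lower on Day1, and 2 higher on Day3. In Extracted cells 0 were called, and in Treated cells 5 were higher and 3 lower. Of all tested genes, 14.4% were called higher and 6.28% lower on Day1, 5.18% higher on Day3, and 6.28% higher and 18.2% lower in Treated cells. Small nuclear-encoded RNAs, which do not enter the mitochondrial totals, took 14.4% of the TPM in Treated replicate 2 and 2.96% in Extracted replicate 1. The remaining 8 libraries gave them 0.0256% to 1.16%.

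The 13 mRNAs together averaged 3.11% ± 1.15 of the TPM for Day1, 6.79% ± 1.16 for Day3, 10.9% ± 0.2997 for Extracted and 10.6% ± 0.279 for Treated cells, against 16.2% ± 0.578 for Control (SD, n = 2 each). As shares of the Control level these are 19.1%, 41.8%, 66.8% and 65.4%. Day1 replicate 2 held 1.71 times the share of Day1 replicate 1, and Day3 replicate 2 held 1.27 times that of Day3 replicate 1. All 13 mRNAs were higher in replicate 2 of both gel groups, while the replicates of Extracted, Treated and Control differed by ratios of 0.951 to 0.964. No gel library reached the lowest Extracted or Treated library, and no Extracted or Treated library reached the lowest Control library. RNA from whole cultures cannot tell fewer mitochondria or genome copies per cell from less RNA per genome. The limma p-values below set each difference against a spread between replicate libraries that is estimated from all 5 groups together. For the 13 mRNAs the median log2 ratio of replicate 2 to replicate 1 was 0.77 for Day1 and 0.37 for Day3. It was -0.07 for Extracted, -0.08 for Treated and -0.0048 for Control. A shared spread can thus be too small for Day3 against Day1 and too large for Extracted against Control.

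**Figure D1:**
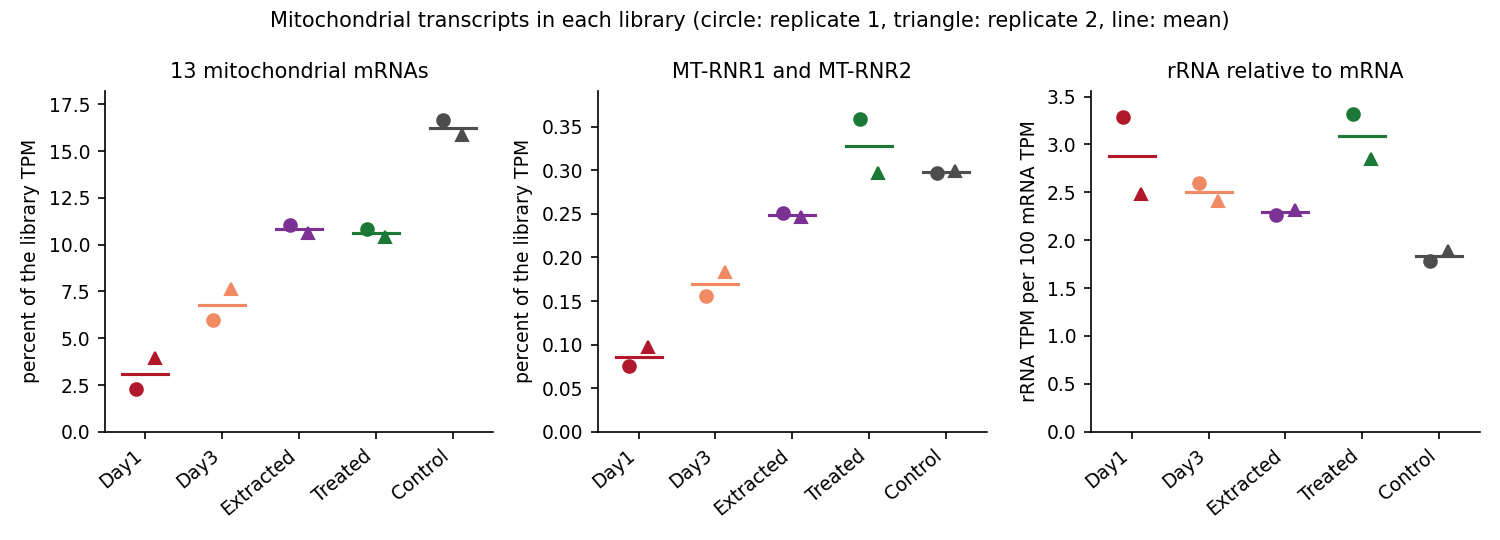
Level of the mitochondrial transcripts in each library, with points for the 2 replicates of a group and lines for their mean. The left and middle panels give the 13 mRNAs and the 2 rRNAs as a percent of the library TPM, and the right panel gives rRNA TPM per 100 mRNA TPM. The mRNA share is lowest in Day1 (mean 3.11%) and highest in Control (mean 16.2%), whereas the rRNA share of Treated (mean 0.328%) lies close to that of Control (mean 0.298%).

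Against Control, all 13 mRNAs fell on Day1 and all 13 fell on Day3, where a fall is a limma call at an adjusted p under 0.05 over the 15167 genes tested. The share of all tested genes that fell was 6.28% on Day1 and 4.64% on Day3. The median log2 fold change of log2(TPM + 1) over the 13 was -2.42 on Day1 and -1.32 on Day3, beside medians over all tested genes of 0.12 and 0.06. In Treated cells 8 of 13 fell, against 18.2% of all tested genes, with medians of -0.69 for the mRNAs and -0.15 for all genes. In Extracted cells 0 of 13 passed, against 1.13% of all tested genes, with medians of -0.54 and -0.02. Without adjustment 9 of the 13 had p under 0.05 in Extracted cells with limma. The 13 adjusted p ran from 0.0648 to 0.551, although the Extracted and Control libraries did not overlap for any of the 13, as for 57.7% of all tested genes. These comparisons share the Control libraries.

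**Figure D2:**
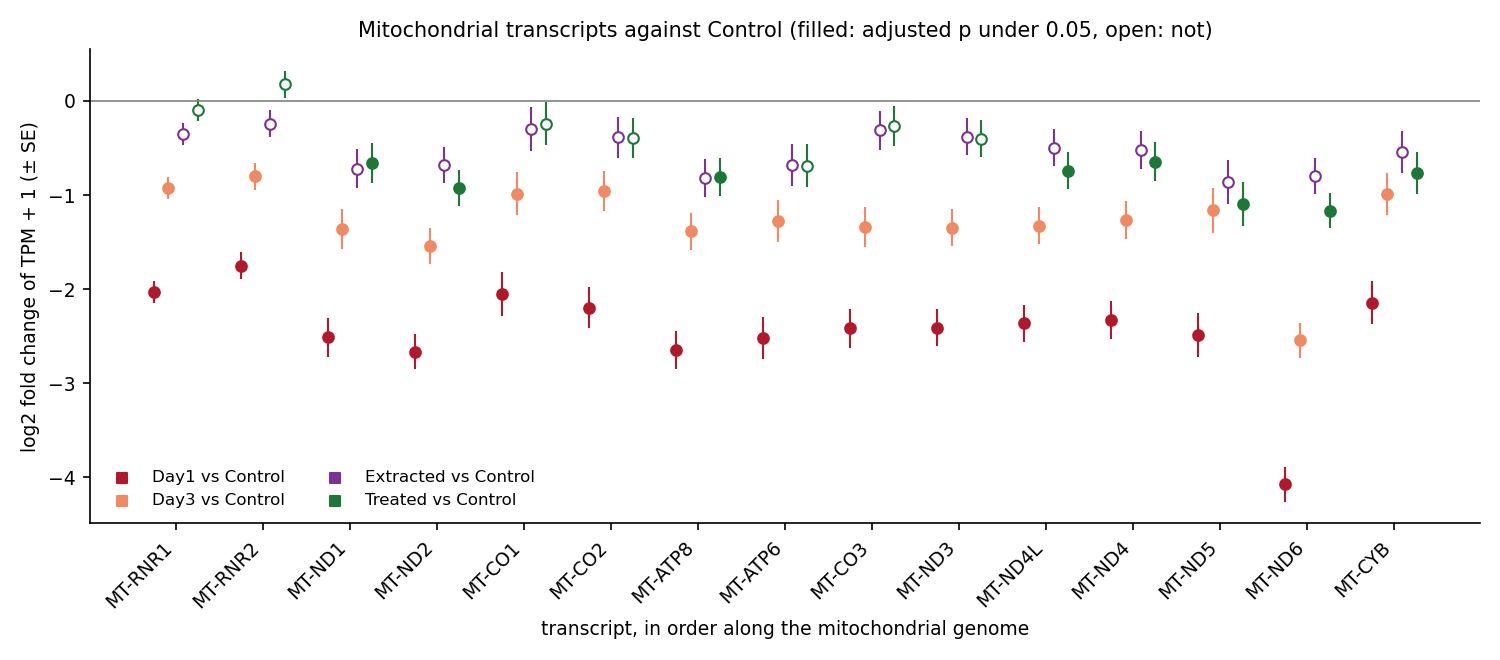
Log2 fold change of TPM + 1 against Control for the 13 mRNAs and 2 rRNAs, in their order along the mitochondrial genome. Colours stand for Day1, Day3, Extracted and Treated, bars for the SE from limma, filled points for an adjusted p under 0.05 and open points for the rest. Day1 lies lowest for each transcript, MT-ND6 lies apart from the other mRNAs in Day1 (-4.07) and Day3 (-2.54), and both rRNAs of Treated cells lie near 0.

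Complex I, the NADH dehydrogenase through which electrons enter the respiratory chain, has 7 of its core subunits encoded here. MT-ND1, the subunit that helps form the ubiquinone site, had 1228 and 2069.6 TPM for Day1, 3089.6 and 4073 for Day3, 5676 and 5393 for Extracted and 6087 and 5463 for Treated cells, against 9057 and 9145 for Control. Day1 was the lowest group and Day3 the next, and the Extracted and Treated libraries overlapped below Control. The log2 fold change against Control was -2.51 (SE 0.21, adjusted p = 0.000138) on Day1, -1.36 (SE 0.21, adjusted p = 0.00568) on Day3 and -0.66 (SE 0.21, adjusted p = 0.0446) in Treated cells. MT-ND2, a membrane subunit of the proton-pumping arm, stood at 1185 and 1971 TPM for Day1, 3036 and 3658 for Day3, 6104 and 5945 for Extracted and 5182 and 4992 for Treated cells, against 9631 and 9726 for Control. Here the Treated libraries lay below both Extracted libraries, though the difference between these groups was not called (-0.24, adjusted p = 0.418). MT-ND2 fell by 2.66 on Day1, 1.54 on Day3 and 0.93 in Treated cells on the log2 scale.

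MT-ND3, which encodes a small hinge-side membrane subunit, had 1257 and 2179 TPM for Day1, 3323 and 3604 for Day3, 6694 and 6854 for Extracted and 6860.3 and 6495 for Treated cells, against 8562 and 9064 for Control. It was the only one of the 7 complex I mRNAs that missed the threshold in Treated cells (-0.40, adjusted p = 0.163). MT-ND4L, a small subunit that shares an mRNA with MT-ND4, had 1144 and 1770.4 TPM for Day1, 2577 and 3316 for Day3, 5063 and 5299.6 for Extracted and 3906 and 4907 for Treated cells, against 7629 and 7023 for Control. MT-ND4, a pump subunit, had 2191 and 3628 TPM for Day1, 5112 and 6788 for Day3, 10155 and 9567 for Extracted and 9214 and 8900.2 for Treated cells, against 14732 and 13588 for Control. Both fell on Day1 (-2.36 and -2.33), on Day3 (-1.32 and -1.26) and in Treated cells (-0.74 and -0.64). The TPM of MT-ND4L was 0.424 to 0.554 times that of MT-ND4, with both extremes in Treated or Extracted libraries.

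MT-ND5, the largest pump subunit, was the least abundant plus-strand mRNA, at 327 and 595 TPM for Day1, 962 and 1272 for Day3, 1434 and 1298 for Extracted and 1263 and 1059.5 for Treated cells, against 2429 and 2525 for Control. Its Day3 and Treated libraries overlapped, with Extracted above them and Day1 well below. Its fall in Treated cells (-1.10, adjusted p = 0.00938) was close in size to its fall on Day3 (-1.16, adjusted p = 0.0172). MT-ND6, the one mRNA of the minus strand, had 12.6 and 14.4 TPM for Day1, 39.2 and 42.5 for Day3, 162 and 119.7 for Extracted and 129 and 89.6 for Treated cells, against 223 and 264 for Control. It was the lowest of the 15 measured transcripts in every group, and its Day1 mean was 5.55% of its Control mean, whereas the other 12 mRNAs kept 16.3% to 25.3%. The log2 fold change of MT-ND6 was -4.07 (SE 0.19, adjusted p = 1.25e-05) on Day1, -2.54 (SE 0.19, adjusted p = 0.000218) on Day3, -1.17 (SE 0.19, adjusted p = 0.00244) in Treated and -0.80 (SE 0.19, adjusted p = 0.0648) in Extracted cells.

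MT-CYB encodes cytochrome b, the 1 mitochondrially encoded subunit of complex III, which passes electrons on to cytochrome c. It had 1082 and 1981 TPM for Day1, 2850.2 and 3730.4 for Day3, 4542 and 4351 for Extracted and 3779 and 3834 for Treated cells, against 6567 and 6373 for Control. Day3 replicate 2 came within reach of the Treated libraries, and the Extracted libraries stood above both. The log2 fold change was -2.14 (SE 0.23, adjusted p = 0.000401) on Day1, -0.99 (SE 0.23, adjusted p = 0.0267) on Day3 and -0.77 (SE 0.23, adjusted p = 0.0353) in Treated cells.

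Complex IV, cytochrome c oxidase, reduces oxygen at the end of the chain, and its 3 mitochondrial mRNAs were, together with MT-ND3, the ones closest to Control in the recovered groups. MT-CO1, the subunit with the haem and copper centre, had 1670.4 and 3054 TPM for Day1, 4072 and 5485 for Day3, 7745 and 7485 for Extracted and 7947 and 7857 for Treated cells, against 9365 and 9334 for Control. MT-CO2, which takes up electrons from cytochrome c, had 2745 and 4812 TPM for Day1, 7571 and 9681 for Day3, 13051 and 12395 for Extracted and 13081 and 12337 for Treated cells, against 16639 and 16642 for Control. MT-CO3, the third core subunit, had 2244 and 3838 TPM for Day1, 5395 and 7088 for Day3, 12642 and 12565 for Extracted and 12568 and 13557 for Treated cells, against 15919.5 and 15413 for Control. Both Day3 libraries lay below both Extracted libraries for all 3, and both Extracted libraries lay below both Control libraries. Such separation was common, at 57.7% of all tested genes between Extracted and Control and 68.7% between Extracted and Day3. All 3 fell on Day1 (-2.05, -2.19 and -2.42) and on Day3 (-0.98, -0.96 and -1.34). In Treated cells their log2 fold changes were -0.24, -0.39 and -0.26, and 0 of 3 were called (adjusted p = 0.475, 0.209 and 0.39).

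Complex V, the ATP synthase, has the pair of subunits encoded by the overlapping genes shown above. MT-ATP6, part of the proton channel, had 1892 and 3429 TPM for Day1, 5300.1 and 6838 for Day3, 9396 and 8789.7 for Extracted and 9377 and 8763 for Treated cells, against 15137 and 14046 for Control. MT-ATP8, a small membrane subunit, was the most abundant transcript in every group, at 5969 and 9837 TPM for Day1, 16405 and 20501 for Day3, 28024 and 26386 for Extracted and 28785 and 25977 for Treated cells, against 50695 and 45266 for Control. Both genes kept the Extracted and Treated libraries overlapping and well apart from Control. MT-ATP8 fell in Treated cells (-0.81, adjusted p = 0.0172) while MT-ATP6 missed the threshold (-0.69, adjusted p = 0.0509). MT-ATP8 stood at 2.87 to 3.35 times the TPM of MT-ATP6 although both lie on 1 mRNA. At 207 bases it is so short that 6 of 19817 protein-coding genes are no longer, so its level rests on the length correction more than those of the others. Without MT-ATP8 the mRNA share was 1.70% and 2.93% for Day1, 4.33% and 5.56% for Day3, 8.27% and 8.01% for Extracted and 7.94% and 7.83% for Treated cells, against 11.6% and 11.3% for Control.

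The make-up of the mRNA pool differed less between groups than its size. Complex IV mRNAs held 29.4% of the mRNA TPM for Day1, 28.9% for Day3, 30.3% for Extracted and 31.7% for Treated cells, against 25.6% for Control, and all 8 other libraries lay above both Control libraries. In complex IV, MT-CO1 and MT-CO2 held more in every other group than in Control. MT-CO3 held 9.79% on Day1, 9.17% on Day3, 11.6% in Extracted and 12.3% in Treated cells, against 9.64% in Control. Complex V mRNAs held 34.1%, 36.1%, 33.4% and 34.3% in the same groups, against 38.5% in Control, and there all 8 lay below. The short MT-ATP8 held 25.6%, 27.2%, 25.1% and 25.8%, against 29.5% in Control. MT-ATP6 overlapped Control, at 8.99% in Day3 replicate 2 and 8.87% in Control replicate 2. Complex I mRNAs held 30.1% to 32.1% in the 5 groups. MT-CYB held 4.89% in Day1 and 4.84% in Day3, above the 4.10% of Extracted, the 3.59% of Treated and the 3.98% of Control. These shares are a description. In each group MT-ATP8, MT-CO2 and MT-CO3 stood at the top of the abundance order of the transcripts and MT-ND6 at the foot. Between these ends the order shifted, with MT-ND2 at rank 6 in Control, 8 in Extracted and 9 in Day1, Day3 and Treated.

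**Figure D3:**
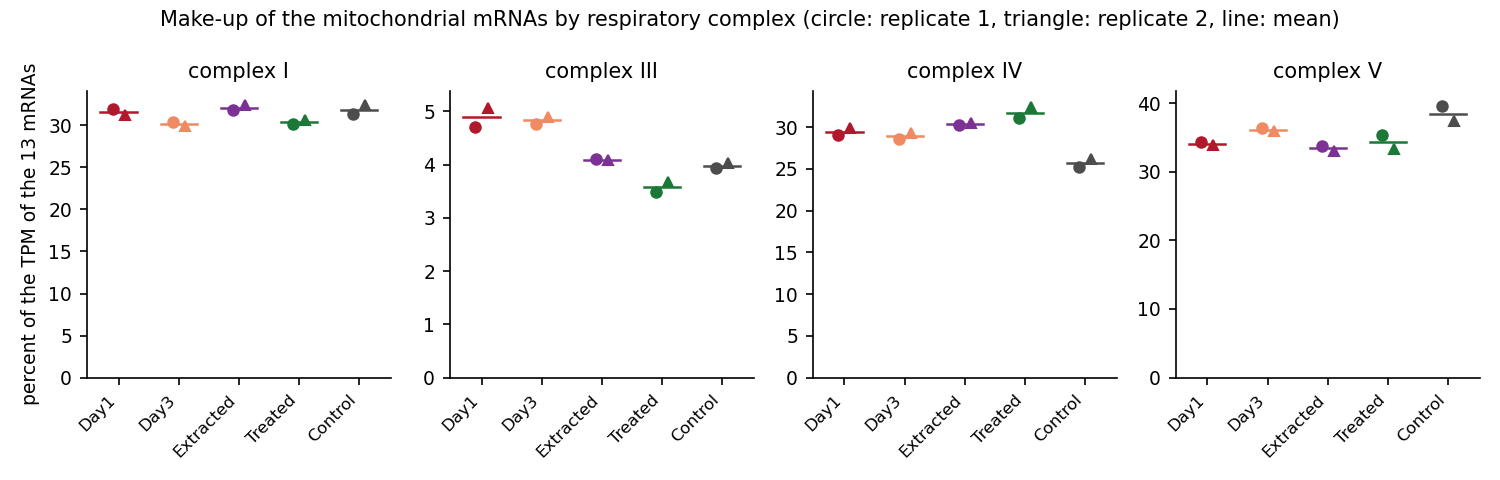
Make-up of the mitochondrial mRNA pool by respiratory complex, as a percent of the TPM of the 13 mRNAs in each library, with points for replicates and lines for group means. Complex IV is lowest in Control (mean 25.6%) and complex V highest in Control (mean 38.5%), and complex III is higher in Day1 and Day3 (means 4.89% and 4.84%) than in the other groups.

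Ratios within a library do not depend on its total, and 8 of them were tested over the 5 groups with an exact permutation test on log2 ratios, for which the smallest possible p is 0.00106. Of the 8, 2 passed after adjustment over the 8. MT-CO1 stood at 1.54 and 1.54 times MT-CYB for Day1, 1.43 and 1.47 times for Day3, 1.71 and 1.72 times for Extracted and 2.10 and 2.05 times for Treated cells, against 1.43 and 1.46 times for Control (exact p = 0.00212, adjusted p = 0.0169). Treated was thus highest and Extracted next, with Day3 and Control overlapping. MT-ND1 stood at 1.14 and 1.04 times MT-CYB for Day1, 1.08 and 1.09 times for Day3, 1.25 and 1.24 times for Extracted and 1.61 and 1.43 times for Treated cells, against 1.38 and 1.44 times for Control (exact p = 0.00635, adjusted p = 0.0254). The gel groups were low on this ratio, and Treated and Control overlapped. Without Extracted replicate 2 the ratio of MT-ND1 to MT-CYB missed the threshold (adjusted p = 0.0508).

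MT-ND6, copied from the opposite strand, stood at 0.0116 and 0.00729 times MT-CYB for Day1, 0.0138 and 0.0114 times for Day3, 0.0356 and 0.0275 times for Extracted and 0.0341 and 0.0234 times for Treated cells, against 0.0339 and 0.0414 times for Control. The exact permutation test over the 5 groups gave p = 0.0201 and, adjusted, 0.0536, so this ratio did not pass. All 4 gel libraries lay below all 6 others, a split that was not tested. The limit given above on the strand of the MT-ND6 reads applies here too. The nuclear-retained RNAs NEAT1 and MALAT1 were also low in the gel groups, and their part in the result was not tested. NEAT1 had 12.4 and 16.9 TPM for Day1, 22.5 and 18.5 for Day3, 132 and 135 for Extracted and 239.5 and 187 for Treated cells, against 102 and 108 for Control. NEAT1 fell on Day1 (-2.77) and Day3 (-2.30) and rose in Treated cells (1.01), while MALAT1 fell on Day1 (-1.97) and Day3 (-1.34) and was not called in the recovered groups. The remaining ratios, MT-ND5 to MT-CYB, MT-ATP8 to MT-ATP6, MT-ND4L to MT-ND4, MT-RNR2 to MT-RNR1 and MT-RNR2 to MT-ND1, had adjusted p of 0.0875, 0.224, 0.905, 0.0875 and 0.055 in the exact test.

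**Figure D4:**
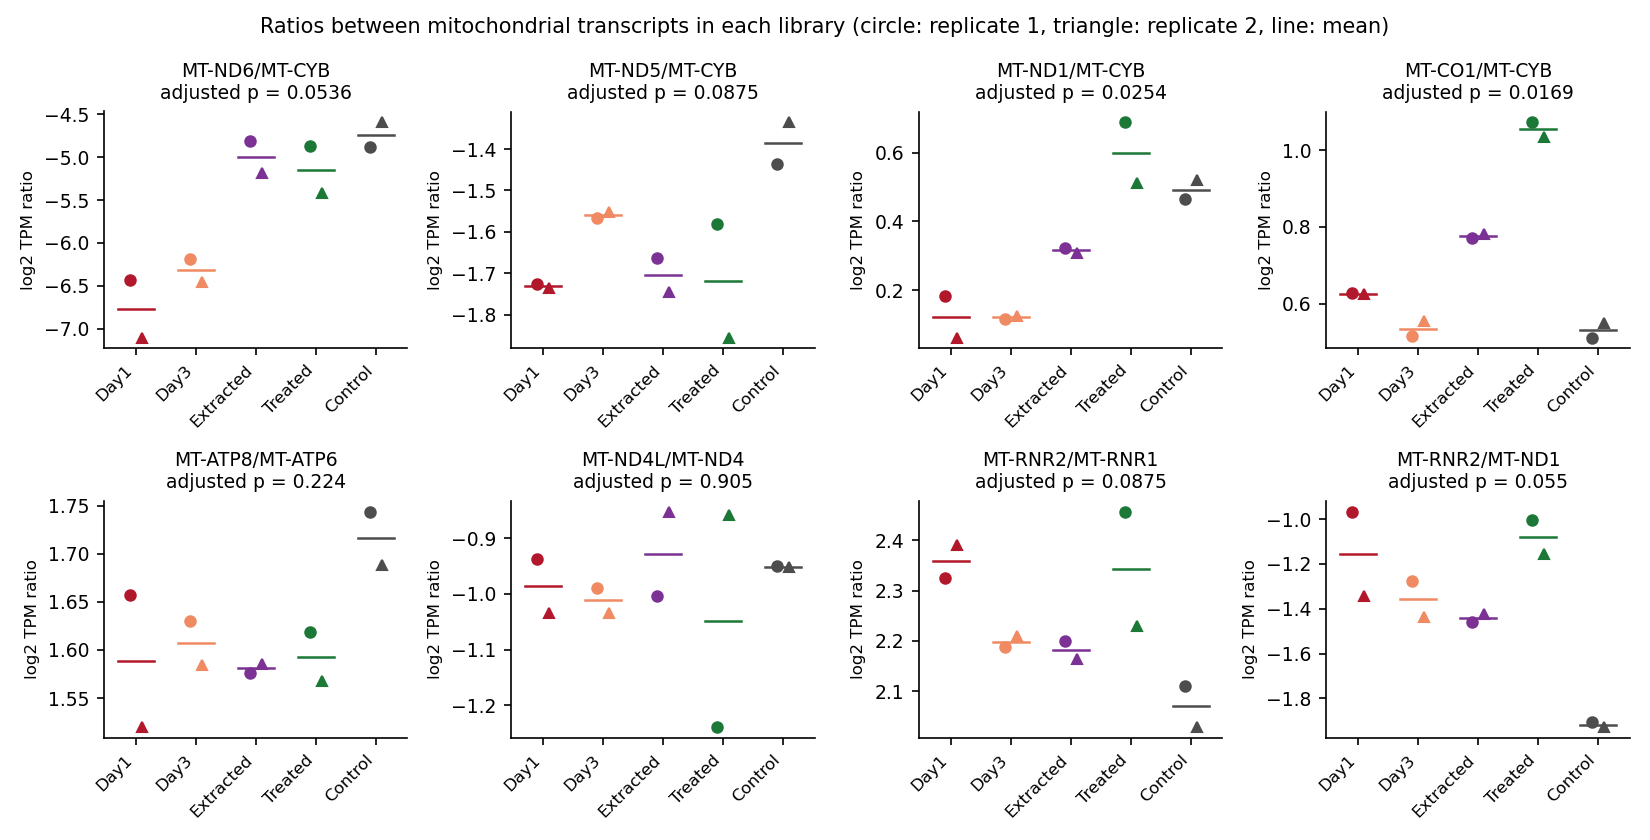
Log2 ratio of TPM between pairs of mitochondrial transcripts in each library, with points for replicates, lines for group means and the adjusted p of the exact permutation test over the 5 groups above each panel; the axes do not start at 0. MT-CO1 to MT-CYB (adjusted p = 0.0169) is highest in Treated, MT-ND1 to MT-CYB (adjusted p = 0.0254) is lowest in Day1 and Day3, and MT-RNR2 to MT-ND1 is lowest in Control.

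The 2 rRNAs, which form the core of the mitochondrial ribosome, made up far less of the TPM than the mRNAs. MT-RNR1, of the small ribosomal subunit, had 125 and 156 TPM for Day1, 279.6 and 325 for Day3, 449 and 449 for Extracted and 553 and 522 for Treated cells, against 559 and 589 for Control. MT-RNR2, of the large subunit, had 628 and 816 TPM for Day1, 1274 and 1505 for Day3, 2062 and 2011 for Extracted and 3035 and 2450.0 for Treated cells, against 2415 and 2405 for Control. Both were lowest on Day1, and MT-RNR2 was higher in each Treated library than in either Control library. MT-RNR1 fell, with a log2 fold change of -2.03 (SE 0.12, adjusted p = 2.14e-05) on Day1 and -0.93 (SE 0.12, adjusted p = 0.00231) on Day3. MT-RNR2 fell as well, with -1.75 (SE 0.14, adjusted p = 0.000131) on Day1 and -0.80 (SE 0.14, adjusted p = 0.0103) on Day3. In Treated cells neither was called, at -0.10 (adjusted p = 0.584) for MT-RNR1 and 0.18 (adjusted p = 0.39) for MT-RNR2, and in Extracted cells the values were -0.35 and -0.24 (adjusted p = 0.15 and 0.414). For each 100 TPM of mRNA there were 3.28 and 2.48 TPM of rRNA for Day1, 2.60 and 2.41 for Day3, 2.27 and 2.31 for Extracted and 3.32 and 2.85 for Treated cells, against 1.79 and 1.89 for Control. All 8 other libraries thus lay above both Control libraries. How far rRNA was depleted or left unselected in each library is not stated in the sources at hand, so the rRNA level relative to mRNA is a property of these libraries.

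All 22 tRNA genes were listed at 0 TPM in all 10 libraries. MT-TV, the valine tRNA gene that lies between the rRNA genes at chrM:1602-1670 on the plus strand, is shown as an example of their length.
MT-TV: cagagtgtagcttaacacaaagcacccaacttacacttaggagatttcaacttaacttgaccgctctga
The 22 genes are 59 to 75 bases long, and of 1025 nuclear genes of that length 1 was above 0 in any library. The share above 0 grew with length, at 66 of 4557 genes of over 100 and up to 200 bases and 324 of 3147 genes of over 200 and up to 300 bases. The zeros therefore give no information on tRNA levels in these cells.

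Between 24 hours and 3 days in the gel, all 13 mRNAs rose, against 0.659% of all tested genes, with a median log2 fold change of Day3 over Day1 of 1.15 beside -0.06 for all genes. The rises ran from 1.04 for MT-ND4L (Day3 2946 ± 523 TPM, Day1 1457 ± 443 TPM, SD, n = 2) to 1.53 for MT-ND6 (Day3 40.9 ± 2.28, Day1 13.5 ± 1.32). Both rRNAs rose as well, MT-RNR1 by 1.11 (SE 0.12, adjusted p = 0.00355) and MT-RNR2 by 0.95 (SE 0.14, adjusted p = 0.014). The adjusted p of the mRNAs lay between 0.00617 and 0.0451, and 0 of 13 were called without Day3 replicate 1, without Day3 replicate 2 or in a fit of these 2 groups alone. Without Day1 replicate 1, the lower Day1 library, 1 was called, and without any single Control or Extracted library 7 were.

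After release from the gel, 6 of 13 mRNAs were higher in Extracted than in Day3 cells by the test, against 6.3% of all tested genes, with a median of 0.69 beside -0.07. MT-ND6 rose by 1.74 (SE 0.19, adjusted p = 0.000491), MT-CO3 by 1.03 (SE 0.21, adjusted p = 0.00946) and MT-ND3 by 0.97 (SE 0.20, adjusted p = 0.00898). MT-ND2, MT-ND4L and MT-ND4 rose by 0.85, 0.83 and 0.74. The other 7 were also higher in both Extracted libraries than in either Day3 library, a separation seen for 68.7% of all tested genes, at 0.30 for MT-ND5 to 0.69 for MT-CO1, without passing. Both rRNAs rose, by 0.57 and 0.56 (adjusted p = 0.00899 and 0.025). The count was 1 without Day3 replicate 1 or Extracted replicate 2, 2 without Extracted replicate 1, and 12 without either Day1 library.

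The 2 recovered populations, one from the gel and one from cisplatin, were then set against each other. Of the 13 mRNAs 0 were called between Treated and Extracted, against 12.1% of all tested genes in either direction, with limma adjusted p of 0.213 to 0.999, and 0 of 13 had an unadjusted p under 0.05. The log2 fold changes ran from -0.37 for MT-ND6 to 0.06 for MT-ND1, with a median of -0.02 beside -0.13 for all genes and SE of 0.19 to 0.24. The libraries of the groups did not overlap for 6 of the 13, as for 58.2% of all tested genes. MT-RNR2 stood at 0.42 (SE 0.14, adjusted p = 0.0813), and rescaling by the median of ratios gave 0.57 (adjusted p = 0.0332) and by nuclear protein-coding genes 0.54 (adjusted p = 0.0237). So the 8 calls in Treated and 0 in Extracted against Control do not by themselves mark a difference between the recovered groups.

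The calls in Treated cells depended on the library total and on single libraries. Treated replicate 2, with its 14.4% of small RNAs, leaves less TPM for other genes, and 3 of 13 mRNAs were called without it and 4 without Treated replicate 1. Leaving out Control replicate 1 left 3 calls, leaving out Control replicate 2 left 1, and leaving out either Extracted library left 5. Median-of-ratios scaling left 3 calls, MT-ND2, MT-ND5 and MT-ND6. Relative to 100 TPM of nuclear protein-coding genes the mRNAs stood at 2.42 and 4.16 TPM for Day1, 6.55 and 8.48 for Day3, 13.2 and 12.2 for Extracted and 12.7 and 14.2 for Treated cells, against 20.5 and 19.3 for Control. The groups kept their distance from Control on this scale. In Extracted cells the count of calls was 7 and 6 without Day1 replicates 1 and 2, whose spread enters the shared error, 1 without either Treated library, and 12 in a fit of Extracted and Control alone. On Day3 it was 4 without Day3 replicate 1, and it was 6 and 8 when Control replicate 1 or 2 was omitted.

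Genes of the nuclear genome that act on mitochondrial DNA and RNA showed few calls beside the falls of the mRNAs in the gel. Of 20 genes for mitochondrial transcription and DNA maintenance, 2 rose and 0 fell on Day1, where 14.4% of all tested genes rose, and 0 were called on Day3 or in Extracted cells (3 and 2 by limma at an unadjusted p under 0.05). TFB2M, an initiation factor of the mitochondrial RNA polymerase, had 43.0 and 36.0 TPM for Day1, 32.5 and 32.4 for Day3, 27.3 and 26.8 for Extracted and 19.2 and 17.6 for Treated cells, against 26.2 and 23.7 for Control. It rose on Day1 (0.64, adjusted p = 0.00573) and fell in Treated cells (-0.42, adjusted p = 0.0261). The helicase gene TWNK was the other rise on Day1 (0.65). POLRMT, the polymerase itself, had 33.1 and 26.8 TPM for Day1, 32.4 and 31.6 for Day3, 27.3 and 31.5 for Extracted and 25.6 and 21.8 for Treated cells, against 31.3 and 31.3 for Control, and was called in none of the 4 (adjusted p = 0.055 to 0.909). TFAM, which packages the genome and starts transcription, was likewise not called, with log2 fold changes of 0.36, 0.10, 0.20 and -0.04. In Treated cells 3 of the 20 fell, against 18.2% of all genes, namely TFB2M, the ligase LIG3 (-0.85) and the topoisomerase TOP3A (-0.59), with 1 fall without Control replicate 1 and 0 without Control replicate 2 or Treated replicate 2.

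Of 22 genes for cleavage and modification of mitochondrial RNA, 2 rose on Day1, where 14.4% of all tested genes rose, and 5 fell in Treated cells, where 18.2% of all fell. Both counts are near these shares. The tRNA-modifying enzyme gene ALKBH1 rose on Day1 (0.71), as did MRM3, an rRNA methyltransferase gene (0.74). ELAC2, which trims the 3 prime ends of tRNAs out of the long RNAs, had 66.2 and 69.4 TPM for Day1, 64.9 and 59.5 for Day3, 46.1 and 49.1 for Extracted and 41.5 and 34.8 for Treated cells, against 61.6 and 68.7 for Control. Both Treated libraries were the lowest, with a log2 fold change of -0.76 (SE 0.11, adjusted p = 0.00176). KIAA0391, the older symbol of the nuclease gene PRORP that cuts the 5 prime ends, fell in Treated cells (-0.54), as did CDK5RAP1, a tRNA modifier (-0.74), and ALKBH1 (-0.42). The Treated count was 2 without either Control library and 2 under median-of-ratios scaling. Of 14 genes for stability and decay of mitochondrial mRNA, 0 were called on Day1, on Day3 or in Extracted cells (3, 0 and 2 by limma at an unadjusted p under 0.05), and 1 fell in Treated cells, the deadenylase gene PDE12 (-0.51), beside 18.2% of all tested genes. LRPPRC and SLIRP, partners that hold mitochondrial mRNAs in a stable form, stood at 0.17 and 0.05 on Day1 and -0.07 and 0.00 on Day3, and MTPAP, the poly(A) polymerase, at 0.31 and 0.18, with 0 calls among them.

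Of 11 regulators of mitochondrial biogenesis, 1 rose and 2 fell on Day1, 0 were called on Day3 or in Extracted cells (0 and 3 by limma at an unadjusted p under 0.05), and 5 fell in Treated cells. Of all tested genes, 14.4% rose and 6.28% fell on Day1 and 18.2% fell in Treated cells. PPARGC1A, the coactivator PGC-1 alpha, had 2.80 and 1.90 TPM for Day1, 5.00 and 2.65 for Day3, 3.57 and 3.77 for Extracted and 1.14 and 1.91 for Treated cells, against 4.78 and 5.80 for Control. All Day1 and Treated libraries lay below both Control libraries, Day1 overlapping Day3, and the gene fell on Day1 and in Treated cells, with log2 fold changes of -0.92 (adjusted p = 0.0315) and -1.33 (adjusted p = 0.00574). Its relative PPARGC1B fell in the same groups (-0.70 and -0.91), ESRRA, a nuclear receptor they act on, rose on Day1 (0.42), and the transcription factor YY1 fell in Treated cells (-0.51). The 5 falls in Treated cells numbered 2 without Treated replicate 2, and omitting Control replicate 1 or 2 left 2 and 1. Of 9 measured mitophagy genes, whose products mark or bind mitochondria for degradation, 6 rose on Day1, 3 on Day3, 0 in Extracted and 2 in Treated cells, while 14.4%, 5.18%, 0.857% and 6.28% of all tested genes rose. BNIP3, a mitophagy receptor that hypoxia induces, had 66.3 and 84.2 TPM for Day1, 42.1 and 36.3 for Day3, 28.2 and 27.2 for Extracted and 40.3 and 36.1 for Treated cells, against 28.0 and 26.8 for Control. It rose by 1.42 on Day1, 0.50 on Day3 and 0.46 in Treated cells, and the adaptor CALCOCO2 by 1.00 and 0.66 on Day1 and Day3. BNIP3L rose by 0.73 and 0.56 at these times, and the kinase gene PINK1 by 0.50 in Treated cells. Without Control replicate 1 the count was 3 on Day1 and 0 on Day3, and without Control replicate 2 it was 4 and 0. It was also 0 on Day3 without either Day3 library, and 0 in Treated cells without either Control library or Treated replicate 1.

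The nuclear genes of the respiratory chain and of mitochondrial translation did not share the size of the falls of the mitochondrial mRNAs. The shares of all tested genes that rose were 14.4% on Day1, 5.18% on Day3, 0.857% in Extracted and 6.28% in Treated cells, and the shares that fell were 6.28%, 4.64%, 1.13% and 18.2%. Of 25 nuclear respiratory-chain subunits, 0 rose and 1 fell on Day1, 2 rose on Day3, 1 rose in Extracted and 1 rose and 5 fell in Treated cells, with medians of 0.07, 0.20, 0.15 and -0.14. NDUFV1, a complex I subunit, was the fall on Day1 (-0.60), COX5B of complex IV rose on Day3 (0.42), and ATP5O, of complex V, rose on Day3, in Extracted and in Treated cells (0.35, 0.44 and 0.27). In Treated cells NDUFS1, SDHC and UQCRC1, of complexes I, II and III, fell (-0.48, -0.42 and -0.42), and without either Control library 0 of the 25 fell. The 5 falls are near the share of all genes. Of 78 mitoribosomal protein genes, which bind the rRNAs above, 18 rose and 2 fell on Day1, 1 rose and 1 fell on Day3, 0 were called in Extracted cells (17 by limma at an unadjusted p under 0.05) and 11 fell in Treated cells. MRPS10 rose (0.63) and MRPS25 fell (-0.61) on Day1, and MRPS12 fell in Treated cells (-0.82). Without Control replicate 1 or 2 the rises on Day1 numbered 2 and 3, and the falls in Treated cells 5 and 4. These directions depended on the scaling: nuclear protein-coding scaling gave 7 rises and 8 falls on Day1, and median-of-ratios scaling gave 8 rises and 7 falls in Treated cells. Of 16 mitochondrial translation factors, 1 rose and 1 fell on Day1, 0 were called on Day3 or in Extracted cells (2 and 2 by limma at an unadjusted p under 0.05) and 1 rose and 2 fell in Treated cells, DHX30 (-0.57) and TACO1 (-0.58) being the falls and RMND1 (0.49) the rise.

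**Figure D5:**
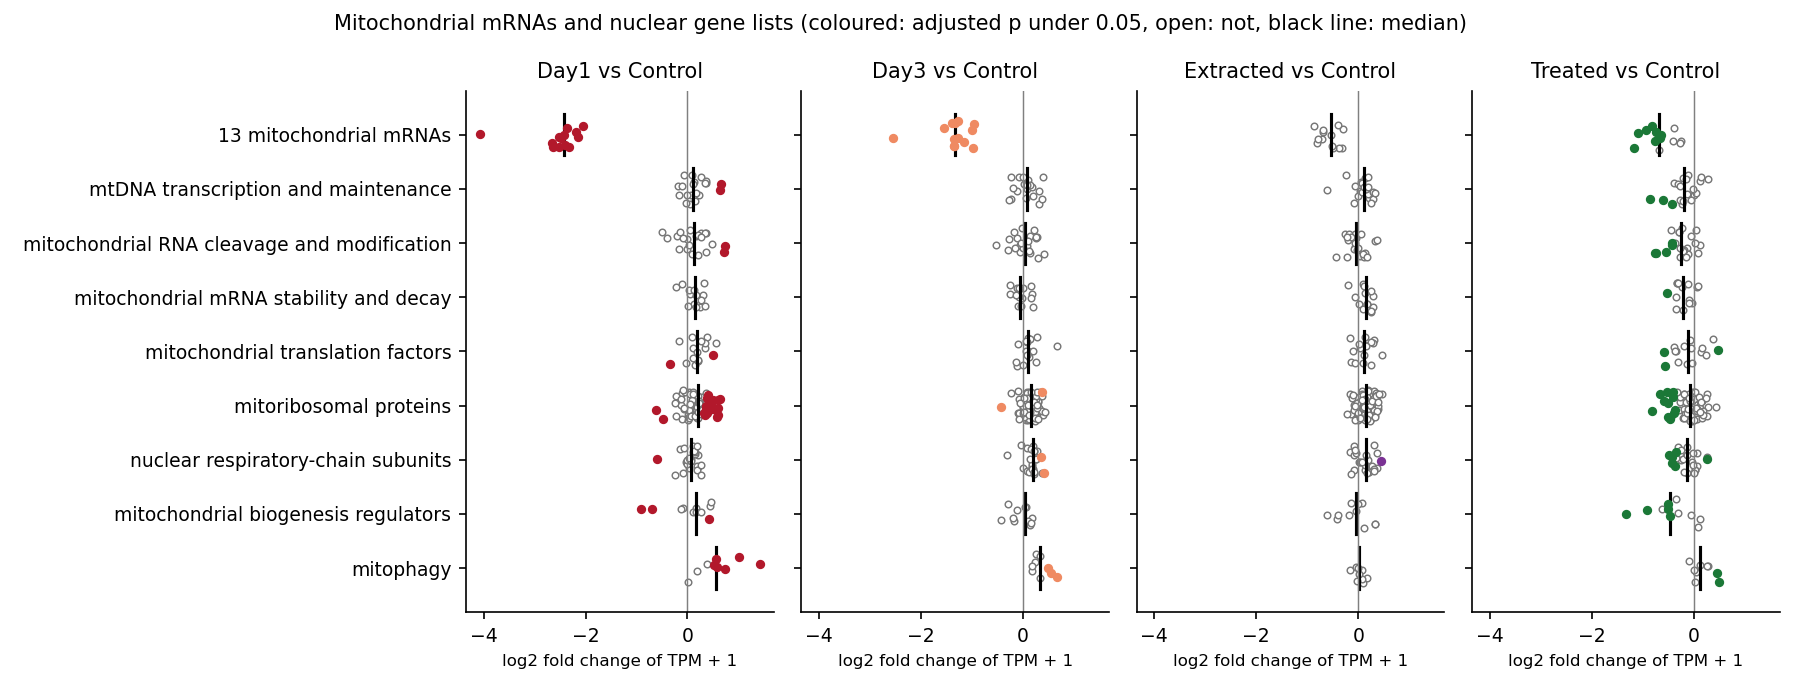
Log2 fold change of TPM + 1 against Control for the 13 mitochondrial mRNAs and 8 lists of nuclear genes, with 1 point per gene, coloured at an adjusted p under 0.05 and open otherwise, and a black line at each median. The mitochondrial mRNAs have medians of -2.42 in Day1 and -1.32 in Day3, while mitophagy genes have medians of 0.56 and 0.34 and the other nuclear lists lie near 0 in those groups.

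Nuclear pseudogenes that copy mitochondrial DNA can take up its reads. Of 405 such symbols 367 were at 0 in all libraries and 8 were tested. MTATP6P1, identical to MT-ATP6 at 98.53% of 681 aligned bases, had 456 and 775 TPM for Day1, 1217 and 1595 for Day3, 2257 and 2053 for Extracted and 2156 and 1877 for Treated cells, against 3699 and 3389.5 for Control. It stayed at 21.4% to 24.4% of MT-ATP6 in every library, and how reads were divided between the copies was not tested. MTCO1P12 and MTND2P28, at 98.7% and 98.37% identity to MT-CO1 and MT-ND2, fell on Day1 (-1.52 and -2.19) and on Day3 (-0.99 and -1.35) like their sources, and 5 of the 8 copies fell on Day1, 3 on Day3 and 3 in Treated cells, where 6.28%, 4.64% and 18.2% of all tested genes fell. In all, the copies held 0.0467% to 0.375% of the TPM.

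Over the 10 libraries the 13 mRNAs kept close company, with Pearson correlations of log2(TPM + 1) of at least 0.907 (median 0.98) for all 78 pairs, which share libraries, group differences and library totals. Among 8344 genes with a mean of at least 10 TPM outside the mitochondrial genome, the 5 most like the summed mRNAs over these libraries were MTATP6P1 (r = 0.996), SLC25A29 (0.972), RHOT2 (0.971), RAPGEF3 (0.954) and FGFR2 (0.949). RHOT2 had 15.8 and 23.5 TPM for Day1, 24.2 and 26.7 for Day3, 34.3 and 37.1 for Extracted and 32.0 and 33.8 for Treated cells, against 38.4 and 43.2 for Control. These correlations are descriptions of 10 libraries in 5 groups.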

How the data were processed

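RNA from OVCAR-3 cultures was extracted with column kits and sequenced as 10 libraries after standard Illumina library preparation, per the labels. The deposited table holds TPM per gene, made by the authors with Trimmomatic, STAR, GRCh38 and Cufflinks, per the submitters' processing notes. Versions and annotation release: not given in the sources used here. Entries sharing an Ensembl identifier (91) were summed to 58222 genes, and GENCODE release 29 served for positions and sequences (99.55% of identifiers). An exact 0 may be a failed estimate.

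A gene was tested if 2 or more libraries reached 1 TPM, which left 15167. The test was limma (version 3.58.1, R version 4.3.3) with log2(TPM + 1) as the response, all 10 libraries in 1 fit, group as the factor, eBayes with a trend, residual degrees of freedom 5, two-sided, with Benjamini-Hochberg adjustment over all tested genes of a comparison. Fold changes subtract the second-named group on that log2 scale and understate those of low genes. Ratios were tested with an exact permutation test of the F statistic over 945 assignments of the libraries to groups; 2 libraries against 2 cannot reach a small p. The fit was also run on simulated data in which genes varied independently, so that run does not bear on members that vary together. Gene names were chosen by rule: the 15 measured members, up to 3 called rises and falls of each list against Control, POLRMT, TFAM, TFB2M, LRPPRC, SLIRP and MTPAP, and the 5 genes most correlated with the summed mRNAs. The members and lists were chosen with earlier results of these data known. Alternatives were other pseudocounts, filters, scalings, calls and fits, each library omitted in turn and a block for the replicate number, with a lone library assumed to vary like the other groups; leaving out the Day1 group, and recounting the lists, were added after the data had been seen. Tables and plots used Matplotlib 3.10.9, NumPy 2.4.6, pandas 2.3.3 and Python 3.11.15. Reads, splicing and variants were not analysed here.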

Additional observations from a re-analysis of the deposited data

How the results depend on the processing

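The log2 fold changes of the 13 mRNAs against Control stayed below 0 in every alternative run, and Day1 against Control kept 13 of 13 mRNAs called in each alternative run. For Day3 against Control the count was 5 with no filter on low values, which tests many more genes. With a 2-fold minimum MT-CO1, MT-CO2 and MT-CYB were no longer called there. For Extracted against Control it was 2 with the filter at 5 TPM, 1 with median-of-ratios scaling, 3 with nuclear protein-coding scaling, 2 with small-RNA genes removed and 12 with the compared groups alone, and 7 with the Day1 group left out, an alternative chosen after seeing the data. For Treated against Control it was 1 with no filter, 3 with median-of-ratios scaling, 4 with small-RNA genes removed and 2 with a 2-fold minimum. It was also below the 8 given above with nuclear protein-coding scaling. It was above 8 with the filter at 5 TPM, with the compared groups alone and with the Day1 group left out. For Day3 against Day1 it was 0 with no filter and 0 with these groups alone. For Extracted against Day3 it was 1 with no filter, 11 with these groups alone, 2 with a 2-fold minimum and 12 with the Day1 group left out. With 1 library left out at a time, counts ranged from 13 to 13 for Day1, 4 to 13 for Day3, 0 to 7 for Extracted and 1 to 11 for Treated against Control, 0 to 13 for Day3 against Day1, 1 to 12 for Extracted against Day3 and 0 to 1 for Treated against Extracted, and 1 to 6 of the 8 ratios passed. Per 100 TPM of nuclear protein-coding genes the mRNAs averaged 12.7 in Extracted, 13.5 in Treated and 19.9 in Control, and 11.5% of the TPM in Treated with small-RNA genes removed. The causes were not tested. With the replicate number as a block the counts were 13, 13, 0 and 9 for Day1, Day3, Extracted and Treated against Control, 13 for Day3 against Day1, 7 for Extracted against Day3 and 0 for Treated against Extracted. Over all tested genes same-numbered libraries did not deviate together (correlations of -0.022 to 0.087), though all 13 mRNAs were higher in replicate 2 of both gel groups. Whether the numbers pair the samples cannot be settled from these values. Unknown depth means that counting error cannot be given.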
